A study of Homo sapiens with 8 samples.

Results

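P300 chromatin immunoprecipitation after knockdown of CSNK2B was described here by the 20496 genomic regions in the authors' table for that antibody, out of 55650 regions in the series, the other 35154 belonging to RBBP4. Every row of the P300 table was taken. NCI-H69, an established cell line, comes from a human small cell lung cancer, and both arms were the same line carried through the same steps. In 1 arm the cells received small interfering RNA against CSNK2B, and in the other a non-targeting control RNA, each with Lipofectamine RNAiMAX. Cells were fixed 48 h later with 1% formaldehyde for 10 min, and chromatin was sequenced in pairs of 150 bp reads. Each arm had 1 P300 library, so every difference below compares these libraries and has no replicate check. The arms were told apart by the names of the value columns alone (a sample column read as knockdown, a control column read as non-targeting), and a swap would turn every direction. The table held only regions that differed between arms, so nothing is said of P300 at a gene that has no region here. The identity of the cells could not be checked from such a table: of the neuroendocrine markers INSM1, CHGA, SYP and NCAM1, only NCAM1 had a region. The knockdown itself was not measured, and no region lay at CSNK2B.

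P300, encoded by EP300, is a large acetyltransferase that acetylates histones and other proteins. It does not read DNA sequence itself. Transcription factors such as CREB, nuclear receptors and SMAD proteins bring it to enhancers and promoters, where its presence is widely used to map active enhancers. CSNK2B encodes the regulatory beta subunit of casein kinase 2, a constitutively active kinase whose tetramer pairs catalytic alpha subunits with beta subunits that help select substrates.

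The promoter windows of 6 genes whose starts lay at a listed P300 region are printed to show the DNA there. They are a selection and do not stand for all such windows. RefSeq promoter windows of GRCh38.p14 were used, each running from 250 bases before to 50 bases after a gene's start. They are printed 5′ to 3′ on the strand of the gene. CKAP4 (chr12:106247971-106248270, minus strand), UBE2Q2 (chr15:75843794-75844093, plus strand) and ECPAS (chr9:111483513-111483812, minus strand) were touched by regions with higher P300 read density after knockdown. CD44 (chr11:35138921-35139220, plus strand), LRPPRC (chr2:43995940-43996239, minus strand) and DHX36 (chr3:154324438-154324737, minus strand) were touched by regions with lower density, of which those at CD44 and LRPPRC had fold changes whose counting intervals included 1 and that at DHX36 gave no whole reads. DHX36 was chosen after its values were seen. Capitals mark matches, on either strand, to GGGCGG (the SP/KLF box), to TGANTCA (AP-1), to TGACGTC (the core of the cAMP response element, CRE) and to CCGGAAG (ETS).
CKAP4: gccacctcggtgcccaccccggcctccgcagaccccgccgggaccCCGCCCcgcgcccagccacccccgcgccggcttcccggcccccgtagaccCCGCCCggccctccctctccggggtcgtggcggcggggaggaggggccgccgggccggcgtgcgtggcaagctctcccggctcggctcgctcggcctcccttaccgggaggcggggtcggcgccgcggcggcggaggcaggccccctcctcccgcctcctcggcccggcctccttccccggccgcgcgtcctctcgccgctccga
UBE2Q2: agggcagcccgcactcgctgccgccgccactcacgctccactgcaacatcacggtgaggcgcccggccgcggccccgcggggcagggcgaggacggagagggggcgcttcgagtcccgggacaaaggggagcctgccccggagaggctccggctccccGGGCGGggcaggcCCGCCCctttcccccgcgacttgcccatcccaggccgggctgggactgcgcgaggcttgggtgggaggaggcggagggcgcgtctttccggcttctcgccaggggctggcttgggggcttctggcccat
ECPAS: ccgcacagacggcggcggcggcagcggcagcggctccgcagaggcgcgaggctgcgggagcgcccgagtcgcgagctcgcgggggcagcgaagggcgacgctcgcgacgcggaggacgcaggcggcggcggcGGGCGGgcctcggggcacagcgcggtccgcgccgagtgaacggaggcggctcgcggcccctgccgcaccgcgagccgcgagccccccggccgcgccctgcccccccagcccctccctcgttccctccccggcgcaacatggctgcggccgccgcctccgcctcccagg
CD44: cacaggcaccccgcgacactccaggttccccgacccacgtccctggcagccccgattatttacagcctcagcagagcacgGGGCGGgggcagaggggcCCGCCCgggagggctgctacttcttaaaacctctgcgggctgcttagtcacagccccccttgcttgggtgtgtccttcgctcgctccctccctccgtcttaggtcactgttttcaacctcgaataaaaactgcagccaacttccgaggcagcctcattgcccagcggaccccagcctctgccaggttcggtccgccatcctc
LRPPRC: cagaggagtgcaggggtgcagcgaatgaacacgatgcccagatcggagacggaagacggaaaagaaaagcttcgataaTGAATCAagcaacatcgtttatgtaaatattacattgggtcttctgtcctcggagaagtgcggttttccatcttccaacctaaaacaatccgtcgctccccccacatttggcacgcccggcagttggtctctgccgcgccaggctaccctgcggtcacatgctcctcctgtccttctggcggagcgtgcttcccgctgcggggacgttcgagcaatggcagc
DHX36: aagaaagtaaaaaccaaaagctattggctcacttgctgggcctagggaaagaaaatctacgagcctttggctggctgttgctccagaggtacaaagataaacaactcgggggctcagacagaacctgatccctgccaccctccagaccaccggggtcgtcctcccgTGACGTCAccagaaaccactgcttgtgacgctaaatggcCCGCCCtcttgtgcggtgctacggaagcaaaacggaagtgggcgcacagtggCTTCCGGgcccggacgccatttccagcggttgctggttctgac
The 3 windows touched by higher regions were 83.0%, 75.7% and 82.3% G and C and held SP/KLF boxes alone among the motifs searched. Those of CD44, LRPPRC and DHX36 were 63.3%, 55.3% and 56.3% G and C. CD44 held 2 SP/KLF boxes, LRPPRC an AP-1 match and no SP/KLF box, and DHX36 a CRE core read on both strands, an SP/KLF box and an ETS match. Among the windows not printed, values overlapped between directions: AKT2 and SDF2, touched by higher regions, had 68.0% and 63.3% G and C, and NUP93 and JOSD1, touched by lower regions, 65.0% and 75.7%. These matches describe the letters of the windows and are not measured binding sites.

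The comparison asked where P300 occupancy differed after CSNK2B knockdown. Values are RPKM (reads scaled for region width and for library total), and the ratio of each region was taken as log2 of knockdown RPKM plus 1 over control RPKM plus 1. Read density was higher after knockdown in 7121 regions (34.7%) and lower in 13375 (65.3%). All 7121 higher regions passed 2-fold (34.7% of listed regions), as did 13174 of the lower ones (64.3%). At 4-fold the counts came near to each other, 6972 higher and 7060 lower. The peak was called in the arm of higher density for 20496 of 20496 regions, per the region names, so direction and arm of the call are the same information. Higher regions had a median of 53.1 RPKM (26.7 to 116) after knockdown and 5.11 RPKM (0 to 40.9) in the control. Lower regions had a median of 6.84 RPKM (0 to 58.0) after knockdown and 34.6 RPKM (17.3 to 108) in the control. The higher group thus stood at a greater density in its high library than the lower group in its own.

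The reads behind these densities were few. Multiplying RPKM by region width returned whole reads (to within 0.01) at 20365 of the 20496 regions (99.4%), and the other 131 are given by RPKM only. The totals that scaled the RPKM were 946392 in the knockdown library and 1092789 in the control. What those totals count is not given in the sources used here. A higher region had a median of 11 reads after knockdown against 1 in the control, and a lower region 2 against 10. The low library held no read in 1020 higher regions (14.3%) and 2096 lower regions (15.7%). Widths were short, with medians of 222 bp and 252 bp, and 28.7% of higher regions stood at the least width of 179 bp.

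A sharp edge in the read pairs shows how the table was bounded. With 1 read in the control, a higher region held at least 9 reads after knockdown, and with 5 control reads it held at least 18. For lower regions the least control count was 8 at 1 knockdown read and 13 at 5. The requirement was therefore steeper for higher regions. Fold changes below are ratios of reads scaled by the library totals, each with a 95% exact binomial interval, which reflects counting error alone and takes no account of how regions came to be listed. The interval lay above 1 for 7063 of 7063 higher regions with whole reads, but for 5656 of 13302 lower ones. Its lower bound reached 2 in 1595 higher and 101 lower regions.

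**Figure D1:**
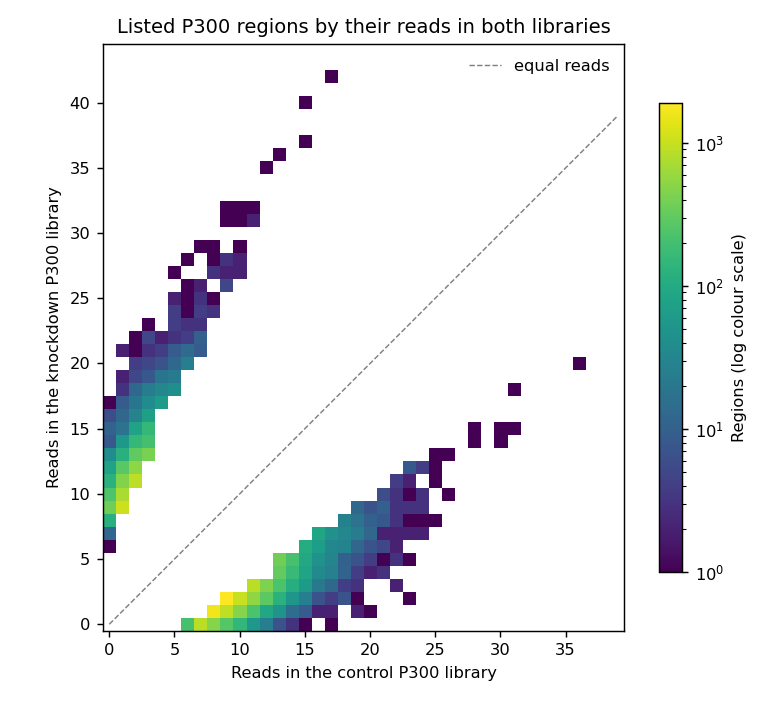
Listed P300 regions by reads in the control library (x axis) and the knockdown library (y axis), with colour giving the number of regions on a log scale and the dashed line equal reads. No region lies near the line: a higher region has at least 6 knockdown reads with 0 control reads and at least 18 with 5, and the lower edge is shallower, at 13 control reads with 5 knockdown reads.

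At protein-coding genes, 6 of the 10 higher regions with the most reads lay within 1000 bp of a gene start. The deepest lay at CKAP4, an endoplasmic reticulum membrane protein, at chr12:106247517-106248598, with 42 reads after knockdown and 17 in the control. Its density was 41.0 RPKM against 14.4 RPKM, 2.85-fold higher (1.59 to 5.35). At AKT2, a kinase of insulin signalling, the region chr19:40284991-40285326 held 37 reads against 15, or 116 RPKM against 40.9 RPKM, and was 2.85-fold higher (1.53 to 5.59). AKT2 was thus the densest P300 region in the table after knockdown, and the densest of the higher regions in the control as well.

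A further 4 higher regions sat on promoter windows. UBE2Q2, a ubiquitin-conjugating enzyme, held 36 reads against 13 (3.20-fold, 1.66 to 6.57). The region at SDF2 and SUPT6H, the latter a histone chaperone of elongating polymerase, held 31 against 9 (3.98-fold, 1.85 to 9.50). HIVEP2, a zinc finger transcription factor, held 31 against 11 (3.25-fold, 1.59 to 7.18). At ECPAS, an adaptor of the proteasome, the counts were 28 and 10 (3.23-fold, 1.52 to 7.46). These 6 promoter regions had folds between 2.85 and 3.98, with control counts of 9 to 17 reads, far above the median of 1 read for higher regions. Listed higher regions with 9 control reads held at least 26 knockdown reads, and those with 11 at least 31. The part of this listing edge in these folds was not tested.

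Away from promoter windows, the region at CHMP3 and its readthrough gene RNF103-CHMP3, where an ESCRT-III subunit is encoded, held 40 reads against 15 (3.08-fold, with a lower limit of 1.66). RAI1, a chromatin-associated regulator, held 32 against 9 at 891 bp from its start (4.11-fold, 1.92 to 9.78). ABCC3, a drug and bile salt transporter, held 32 against 10, and ALDH3A1, an aldehyde dehydrogenase, 32 against 11. OR4Q3, an olfactory receptor gene, held 35 against 12 (3.37-fold, 1.71 to 7.13). Olfactory receptor genes have near-identical relatives, so the placement of reads there is uncertain.

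The deepest lower regions differed by less, under a shallower listing edge. With 12 knockdown reads a lower region held at least 23 in the control. The 1 higher region with 12 control reads held 35 after knockdown. The part of the edge in this contrast was not tested. CD44, a hyaluronan receptor and marker of non-neuroendocrine states, had the most reads of any lower region, 20 after knockdown and 36 in the control at chr11:35138716-35139696. Its density was 21.5 RPKM against 33.6 RPKM, 1.56-fold lower, and the interval (0.879 to 2.84) included 1. The region shared by VGLL4, a TEAD cofactor, and ATG7, an autophagy enzyme, held 15 reads against 28 (1.62-fold lower, 0.835 to 3.26). That at FAAP24, a Fanconi anaemia core complex protein, and CEP89 held 12 against 25, or 57.1 RPKM against 103 RPKM (1.80-fold lower, 0.874 to 3.94). EPDR1 held 12 against 24 (0.833 to 3.80), while LRPPRC, a mitochondrial RNA-binding protein, and NUP93, a nuclear pore scaffold, each held 12 against 23 (0.793 to 3.66). For all 6 of these promoter regions, a difference between the libraries was within counting error.

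Among the other deep lower regions the interval cleared 1 at SYNE2, LCLAT1 and OR4M1 and not at CHMP4B, MPRIP and DNAH14. SYNE2, the nuclear envelope protein nesprin-2, held 7 reads against 24 (2.97-fold lower, 1.24 to 8.16). LCLAT1, an acyltransferase of cardiolipin, held 10 against 26 (2.25-fold lower, 1.05 to 5.23). OR4M1, an olfactory receptor gene, held 9 against 24 (2.31-fold lower, 1.04 to 5.65). OR4M1 lies near OR4Q3 on chromosome 14, where the listed region went the other way. CHMP4B, an ESCRT-III subunit, had the densest lower region of all, 58.0 RPKM against 108 RPKM from 14 reads against 30 (1.86-fold lower, 0.954 to 3.79).

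**Figure D2:**
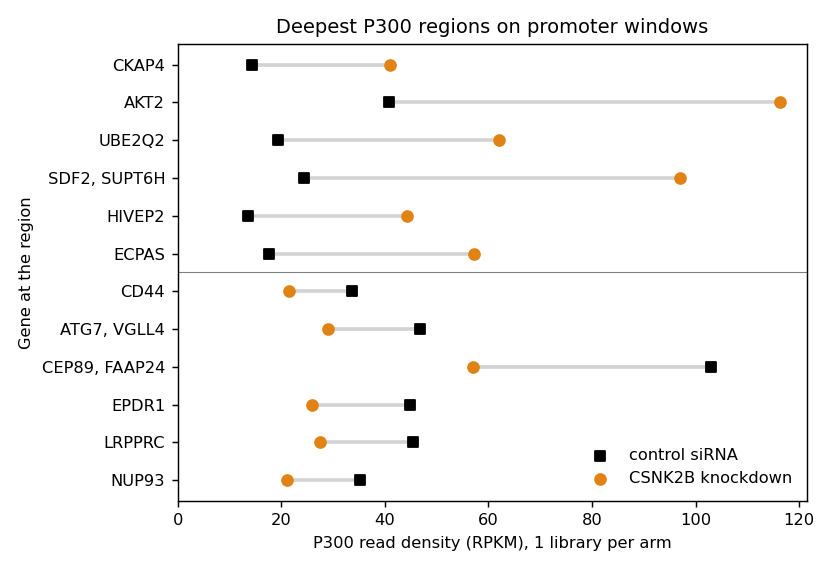
P300 read density (RPKM, x axis) in the control library (squares) and the knockdown library (circles) at the 6 deepest higher (top) and 6 deepest lower (bottom) regions on promoter windows, 1 library per arm and no error bar. The grey spans are longer above than below: AKT2 goes from 40.9 to 116 RPKM, whereas CD44 goes from 33.6 to 21.5 RPKM. The listing edge was steeper for higher regions, and its part in this contrast was not tested.

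Of the 131 regions without whole reads, 7 also lay on promoter windows (5.34%), against 101 of the 20365 with whole reads (0.496%). They were named after their values were seen. PAFAH1B1, a dynein regulator, stood at 77.0 RPKM after knockdown and 22.9 RPKM in the control, and TASOR2 at 76.7 RPKM and 10.2 RPKM. The other 5 were lower. DHX36, a helicase that unwinds G-quadruplexes, stood at 11.3 RPKM after knockdown and 68.5 RPKM in the control (log2 ratio -2.50). TSC1, which restrains mTOR signalling, stood at 16.7 RPKM and 61.5 RPKM (log2 ratio -1.82), JOSD1 at 12.5 RPKM and 47.0 RPKM, and PPIF, the mitochondrial cyclophilin, at 5.71 RPKM and 39.6 RPKM. ATP5PF, an ATP synthase subunit, stood at 27.3 RPKM and 51.3 RPKM. No counting interval can be given for these regions.

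Most listed P300 regions lay between protein-coding genes. Of the higher regions 55.3% were between protein-coding genes, 38.8% inside them and 5.93% within 3000 bp of a gene end, and the lower regions were placed alike, at 55.4%, 39.5% and 5.11%. Of higher regions 41.8%, and of lower regions 42.3%, met no gene of any kind. The shares differed at gene starts. Within 1000 bp of a protein-coding start lay 143 higher regions (2.01%, 95% exact interval 1.70 to 2.36) and 161 lower regions (1.20%, 1.03 to 1.40). Intervals of shares, here and below, treat each listed region as independent and do not cover spread between libraries. In the first 500 bp downstream of a start the shares were 0.969% of higher and 0.456% of lower regions. At the far ends of genes no such excess of higher regions was seen, with 55 (0.772%) and 125 (0.935%). On promoter windows there were 55 higher and 53 lower regions, touching 112 of the 15843 genes that had a window (0.707%).

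Depth moved with this pattern. On promoter windows a higher region held a median of 15 reads against 3, and a lower one 15 against 5, whereas elsewhere the medians were 11 against 1 and 10 against 2. Among higher regions, the share within 1000 bp of a start was 0.892% where the high library had 6 to 9 reads, 1.32% at 10 to 14, 4.08% at 15 to 19, and at 20 or more it was 38 of 190 (14.6% to 26.4%). Among lower regions it was 0.777%, 0.994%, 3.73% and 7.59% (11 of 145, 3.85 to 13.2). Gene starts were thus a larger share of the deepest regions in both directions. The depth classes were drawn after the data were seen, and the part of the unequal listing edge in this difference was not tested.

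**Figure D3:**
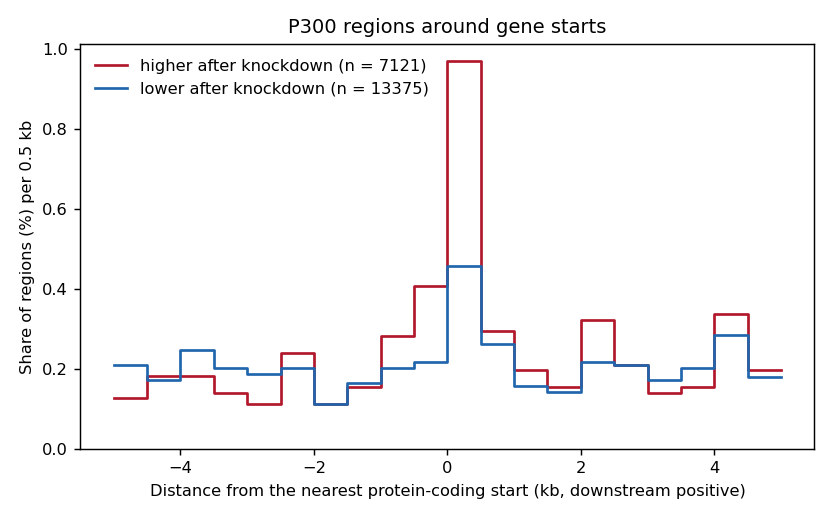
Share of higher (red, 7121) and lower (blue, 13375) P300 regions in 0.5 kb steps of distance from the nearest protein-coding start (x axis, kb, downstream positive). The step just downstream of the start holds 0.969% of higher and 0.456% of lower regions, and farther out the lines cross repeatedly.

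The promoter windows touched by P300 regions differed in some letters. A touch of 1 base was enough, so a match can lie in the window and outside the region: the region at FAAP24 covered 2 bases of its window and that at JOSD1 covered 19. The box GGGCGG was found in 56.3% of all 22078 windows, in 70.3% of the 64 windows touched by higher regions and in 55.2% of the 58 touched by lower regions. The ETS letters CCGGAAG were found in 12.8% of all windows, 14.1% of those at higher regions and 31.0% (18) of those at lower regions. Counted by region, since neighbouring genes can share one, ETS letters lay in 16 of 53 lower and 9 of 55 higher regions' windows (30.2% and 16.4%). The genes of the windows touched by lower regions were ADAR, ATP5PF, CSTF3, DHX36, FAAP24, H3C6, MDH2, NUDT4, POGK, POLR2M, STMP1, STYXL1, TFIP11, THEM4, TSC1, YIPF3 and ZNF18. The CRE core TGACGTC stood in 4.07% of all windows, 4.69% of those at higher and 10.3% (6) of those at lower regions, at CSTF3, DHX36, HAUS2, JOSD1, LRRC57 and PPIF. Shares of all windows with AP-1 (TGANTCA), the E-box CACGTG and the NRF1 core GCATGCG were 6.16%, 8.32% and 4.60%. At higher regions they were 4.69%, 1.56% and 3.13%, and at lower regions 6.90%, 10.3% and 5.17%. Both strands were searched, the letters of AP-1 and of the E-box read the same on both, and no motif searched holds another. Median G and C content was 62.3%, 66.7% and 62.2% in the same order of windows. The windows compared were not matched for G and C content.

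At the level of genes, 4723 of 20037 protein-coding genes (23.6%) had a region in their span or within 3000 bp. By the mean over a gene's regions, 1357 genes (6.77%) were higher by 2-fold or more and 2565 (12.8%) lower by as much. Among 1816 genes with several regions, 133 were higher in all, 556 lower in all and 1127 (62.1%) mixed. All 68 genes with 10 or more regions were mixed. Genes with a region had a median length of 96.1 kb, against 24.1 kb for all genes, and the density of regions went from 4.22 per Mb in genes under 20 kb to 8.08 per Mb in genes of 500 kb or more.

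The genes with the most regions were very long, and each held both directions. LRP1B, a giant lipoprotein receptor, had 10 higher and 23 lower regions, of which the deepest held 20 reads after knockdown against 5 and 7 against 19. MACROD2, an ADP-ribosyl hydrolase, had 7 higher and 24 lower regions, with 18 against 3 and 7 against 20 reads at the deepest. CSMD1, a complement-regulating membrane protein, had 11 higher and 18 lower, and its deepest lower region held 0 reads against 17. That region was 4.91-fold lower with 3 reads put in place of 0, and the lower counting limit was 3.57. DLG2, a postsynaptic scaffold, had 8 and 18, and PTPRD, a receptor phosphatase, 8 and 16, with 22 reads against 4 at its deepest region (6.35-fold higher, 2.16 to 25.4). LINGO2 had 10 and 12, MAGI2 6 and 16, NELL1 12 and 10, PRKG1 7 and 14, and CTNNA3 7 and 13. NELL1, a secreted signalling protein, was thus the only one of these 10 genes with more higher than lower regions.

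Gene lists of factors that work with P300, of pathways it serves and of cell states of this cancer were read against all coding genes, of whose 9155 regions 34.8% were higher. The 22 lists held 548 genes, of which 222 had a region. Of all 20037 coding genes 23.6% had one. That share rose with gene length, from 5.73% under 20 kb to 24.8% at 20 to 100 kb. It was 66.0% at 100 to 500 kb and 96.2% at 500 kb or more. By their mean, 42 list genes were higher by 2-fold or more and 110 lower by as much, against 6.77% and 12.8% of all coding genes, and taken by each gene's densest region the counts were 106 and 114. The list shares below rest on few regions and no test was made of them. Members named for having all their regions in 1 direction were picked after their values were seen.

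EP300 and its paralog CREBBP had no region, nor did RBBP4, CSNK2A1 or CSNK2A2. Among histone acetyltransferases and bromodomain readers, 7 of 21 genes had a region, with 4 regions higher and 11 lower. KAT2B, the acetyltransferase PCAF, had 1 region in each direction, 15 reads after knockdown against 3 in the control and 5 against 17. KAT6A had a single higher region of 9 reads against 1. The lower regions of this list were concentrated in NCOA2, a nuclear receptor coactivator, which had 6 of them, all lower, with 1 to 5 reads after knockdown and 10 to 13 in the control. At NCOA3, its relative, the deepest region was higher, with 11 reads against 1 (12.7-fold, 1.85 to 547).

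Histone deacetylases and corepressors had regions at 4 of 22 genes, 4 higher and 8 lower. NCOR1, a nuclear receptor corepressor, held 18 reads against 5 at a region it shares with TTC19 (4.16-fold higher, 1.49 to 14.3), and HDAC4 held 10 against 1 at one region and 1 against 8 at another. HDAC9 held 7 against 16 at its deepest region, with an interval that included 1. Of the enhancer chromatin factors, with a median length of 132 kb, 11 of 24 had a region, 5 regions higher and 18 lower. MED13, a Mediator kinase module subunit, held 7 reads against 23 (2.85-fold lower, 1.18 to 7.85). KMT2C, an enhancer methyltransferase, had 3 regions, SMARCA2, a remodelling ATPase, 2 and ARID1B, its partner subunit, 2, and all of these were lower. Higher regions of the list lay at CHD7, with 15 reads against 3 at its deepest, at MED12L, with 3 of 7 regions higher, and at STAG1, a cohesin subunit, with 9 reads against 0 at its 1 region.

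Among the DNA-binding factors that recruit P300, the AP-1 and ATF/CREB list had regions at 3 of 24 genes, 1 higher and 7 lower. CREB5 accounted for 4 of the lower ones, with 2 to 4 reads after knockdown and 9 to 13 in the control. FOS, JUN, CREB1 and ATF4 had none. Nuclear receptors had regions at 17 of 30 genes, 18 higher and 37 lower (32.7% higher), close to the share higher at all genes. Their median length was 113 kb, and 66.0% of all coding genes of 100 to 500 kb had a region. NR2F1, an orphan receptor of neural development, held 16 reads against 0. With 3 reads put in place of 0 its density was 6.16-fold higher, and the lower counting limit was 4.45. RORA held 24 against 6 at its deepest region (4.62-fold higher, 1.84 to 13.8) but had 7 higher and 9 lower regions in all. RARB, the retinoic acid receptor beta, had 2 higher and 9 lower.

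The SMAD and TGF-beta list had regions at 7 of 23 genes, 3 higher and 15 lower (16.7% higher). LTBP1, which tethers latent TGF-beta in the matrix, had 6 regions, all lower, with 1 to 5 reads after knockdown and 9 to 16 in the control. BMPR1B, a BMP receptor, had 3 lower regions and SMAD3, a signal transducer, 1 of 4 reads against 13. The activin receptor ACVR2A went the other way, with 2 higher regions of 11 and 12 reads against 2.

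The cAMP and CREB signalling list had 22 higher and 27 lower regions at 15 of 27 genes (44.9% higher). Its median gene length was 128 kb, and 66.0% of all coding genes of 100 to 500 kb had a region. PDE10A, a phosphodiesterase that degrades cyclic nucleotides, had 6 regions and all were higher. Each of these 6 held 9 to 11 reads after knockdown and 0 or 1 in the control, with log2 ratios of 3.15 to 5.76. Without PDE10A, a setting chosen after the values were seen, 16 of 43 regions were higher (37.2%), beside 34.8% at all coding genes. PDE4D, another phosphodiesterase, had 7 higher and 8 lower, the deepest with 20 reads against 3 (7.70-fold higher, 2.28 to 40.5). PRKAR1A, a regulatory subunit of protein kinase A, had 3 lower regions of 1 to 3 reads against 9 to 12. NR4A2, a CREB target, held 5 against 18 (3.12-fold lower, 1.12 to 10.7). BDNF, another, had 1 higher and 2 lower regions.

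Cell state genes of small cell lung cancer were next. The neuroendocrine identity list had 7 higher and 35 lower regions (16.7% higher) at 11 of 38 genes. RTN1, an endoplasmic reticulum protein of neuroendocrine cells, had 4 lower regions with 9 reads after knockdown and 44 in the control in all. SYT1, the synaptic vesicle calcium sensor, had 2 higher and 4 lower regions, the deepest with 20 reads against 6 (3.85-fold higher, 1.49 to 11.7). SCG3, a secretory granule protein, had 1 of each, 17 reads against 3 and 3 against 11. PCSK2, a prohormone convertase, had 1 higher and 4 lower. NEUROD1 and INSM1, lineage transcription factors, had no region.

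The non-neuroendocrine list had regions at 10 of 38 genes, 5 higher and 12 lower. By their mean, 2 of these genes were higher by 2-fold or more and 5 lower by as much. CD44, FGFR1, MYOF, NOTCH2 and TEAD1 had lower regions only, with 1 read against 12 at FGFR1 (10.4-fold lower, 1.54 to 444). AXL, a receptor tyrosine kinase, held 26 reads against 9 at 1297 bp from its start (3.34-fold higher, 1.51 to 8.09). EGFR held 16 against 2 (9.24-fold higher, 2.17 to 82.8), while RUNX1 had 1 higher region (19 against 4) and 2 lower ones (1 against 8 and 0 against 8). YAP1, REST and VIM had none.

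Among neural genes, nearly all of the long adhesion and guidance genes had a region (45 of 49), with 114 higher and 240 lower. Their median length was 887 kb, and of all coding genes of 500 kb or more 96.2% had a region. The channel and receptor lists below had median lengths of 371 kb and 372 kb. Of all coding genes of 100 to 500 kb, 66.0% had a region. TENM2 held 21 reads against 1 at its deepest region (24.2-fold higher, 3.90 to 1003) and CNTNAP2 25 against 7 (4.12-fold higher, 1.73 to 11.3). Voltage-gated ion channels had 22 higher and 62 lower regions at 24 of 32 genes (26.2% higher). The calcium channel CACNA1E had 5 lower regions and none higher, and the potassium channel KCNMA1 6 and none. Glutamate and GABA receptors had 38 higher and 60 lower at 23 of 29 genes (38.8% higher), with 21 reads against 2 at GRM5 (12.1-fold higher, 2.96 to 107).

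DNA repair genes had regions at 23 of 36 genes, 13 higher and 30 lower. XRCC4, a scaffold of DNA end joining, had 3 higher and 2 lower regions, the deepest with 19 reads against 4 (5.48-fold higher, 1.82 to 22.2). LIG1, the replicative DNA ligase, held 5 reads against 14 on its promoter window, with an interval that included 1 (0.825 to 8.60). Cell cycle genes had regions at 5 of 32, among them CDK6 with 16 reads against 3 and RB1 with 2 against 13. Hypoxia genes had regions at 4 of 19, ribosomal protein genes at 2 of 30 and housekeeping genes at 3 of 24. Ribosomal protein and housekeeping genes had median lengths of 4.60 kb and 17.2 kb, and of all coding genes under 20 kb 5.73% had a region. Median lengths were 26.8 kb for hypoxia, 23.4 kb for cell cycle and 83.7 kb for DNA repair genes. Of all coding genes of 20 to 100 kb, 24.8% had a region.

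Lists for cells that should be absent were read the same way. T cell markers had regions at 4 of 12 genes (3 higher, 2 lower), fibroblast markers at 2 of 12 (1 higher, 2 lower), skeletal muscle markers at 4 of 12 (6 higher, 7 lower) and hepatocyte markers at 0 of 12. For T cells these included CD247, CD5 and CD8A, and for muscle they were RYR1, TTN, NEB and MYH2. The muscle genes carried 14.7 regions per Mb, from 13 regions, against 6.74 per Mb over all coding genes. T cell markers carried 7.53 per Mb, fibroblast markers 3.86 and hepatocyte markers 0. Listed regions therefore occurred at genes of other lineages as well as at those of this cancer.

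**Figure D4:**
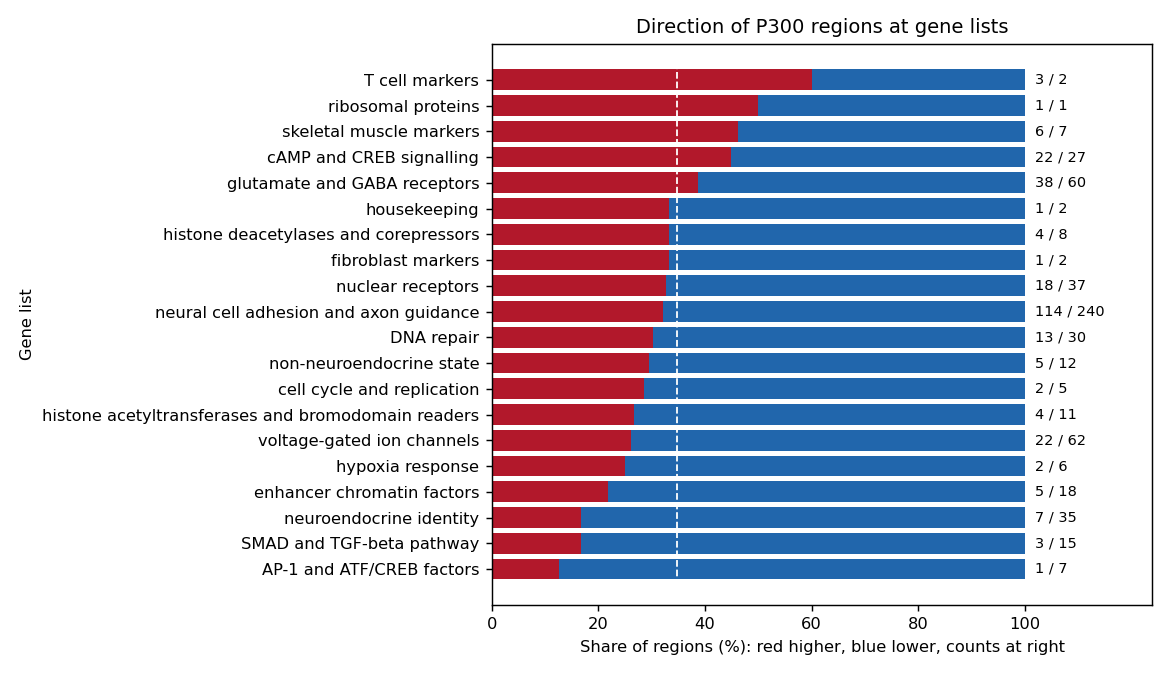
Share of higher (red) and lower (blue) P300 regions at the genes of each list that had a region, with the counts of higher and lower regions at the right and a dashed line at the 34.8% higher of all coding genes' regions. Neuroendocrine identity (7 / 35) and the SMAD and TGF-beta pathway (3 / 15) lie left of the line and cAMP and CREB signalling (22 / 27) right of it, with no test made.

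The balance of directions varied between chromosomes. On chromosomes 4, 6, 13, 18, 21, 22 and X, grouped after their values were seen, 24.8% of 2895 regions were higher (22.2% to 29.9% by chromosome), at 3.58 regions per Mb. On the other 16, without Y, 36.4% of 17599 were higher (33.3% to 44.9%), at 7.92 per Mb. Chromosome 19 had the highest share, 44.9%, followed by chromosome 17 with 272 of 633 regions, and chromosome 20 stood at 40.6%. The sparse group also had fewer reads in the low library: 74.7% of its higher regions and 62.7% of its lower regions held at most 1 read there, against 50.8% and 37.3% on the others. RBBP4 regions were spread from 3.11 to 11.3 per Mb on the sparse group and from 9.98 to 19.0 on the rest. The part of these differences in depth in the balance of directions was not tested. Directions were mixed locally as well: 80.0% of the 2803 bins of 1 Mb that held a region held both.

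**Figure D5:**
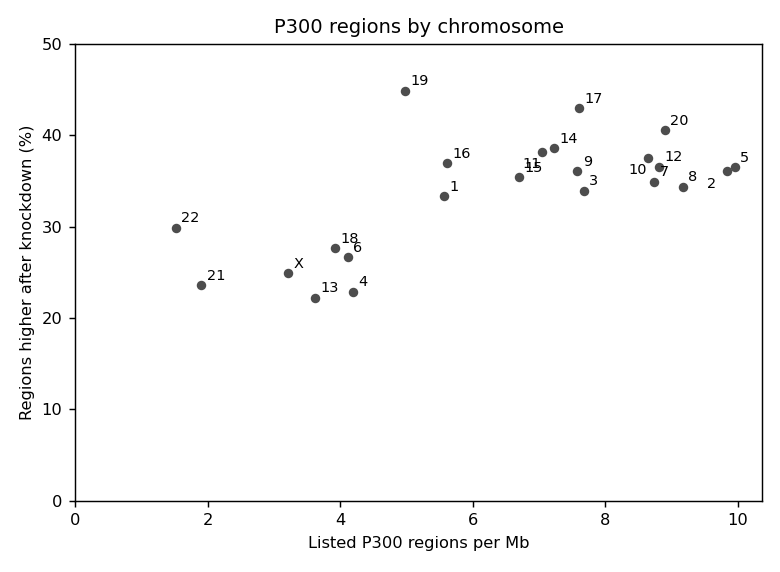
Listed P300 regions per Mb (x axis) and the share of them higher after knockdown (y axis, %) for each chromosome, labelled by name and without Y. Chromosomes 4, 6, 13, 18, 21, 22 and X lie at the lower left, with 22.2% to 29.9% higher, and the other 16 between 33.3% and 44.9%.

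Few P300 regions coincided with a listed RBBP4 region from the same cells. RBBP4 is a histone-binding subunit of several deacetylase, Polycomb and chromatin assembly complexes. The antibodies carried separate batch labels, so a difference between them and a batch difference cannot be told apart. The columns of the RBBP4 table bear only initials, and the one with S was read as knockdown and the one with C as control. An overlap of at least 1 base was found for 317 P300 regions (1.55%) and 317 RBBP4 regions (0.902%). Both antibodies were higher in 101, both lower in 59, P300 higher with RBBP4 lower in 32, and P300 lower with RBBP4 higher in 125. In the RBBP4 table as a whole, 64.9% of 35154 regions passed 2-fold on the higher side and 31.2% on the lower side.

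Overlap was more frequent at gene ends, at 10.7% of higher and 7.17% of lower P300 regions, and most frequent on promoter windows. Of the P300 regions on a window 19 of 55 higher (34.5%) and 19 of 53 lower (35.8%) overlapped an RBBP4 region. RBBP4 was higher in 37 of these 38, whichever way P300 went, the other being LCE2B. The direction of RBBP4 over all its regions on promoter windows was not counted, so 37 of 38 has no baseline here. Nor was the share of all windows with an RBBP4 region. The examples that follow were chosen after their values were seen, apart from ECPAS and CD44. At ECPAS both were higher, with 28 reads against 10 for P300 and 47 against 8 for RBBP4. At AGTPBP1, a tubulin-processing enzyme, P300 held 4 against 13 and RBBP4 82 against 6. At CD44 P300 held 20 against 36 and RBBP4 14 against 3. At LARP7, which stabilises 7SK RNA, P300 held 14 reads after knockdown and 0 in the control, and RBBP4 48 against 10. Apart from LCE2B, RBBP4 was therefore higher at these promoters for P300 regions of either direction.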

How the data were processed

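P300 immunoprecipitated libraries of both arms were analysed, and the 4 input libraries of the series were not used here. The authors deposited 1 table per antibody whose values are RPKM per region, per the file headers. The deposited columns of fold change and p-value were not used. The submitters' processing notes give the build GRCh38 and name MACS2 2.2.7.1. They also list ChIPseeker 1.28.3, DiffBind 3.4.11, Bowtie2 2.4.5, Trim Galore 0.6.7 and FastQC. Which tool made which column is not given in the sources used here.

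Reads were recovered as RPKM times width divided by the value of 1 read, accepted within 0.01 of a whole number. Ratios had 1 added to each RPKM, so those of low regions are understated, and a call was an absolute log2 ratio of at least 1. Fold changes used recovered reads over the totals behind the RPKM, a floor of 3 reads for a library at 0, and exact 95% binomial intervals. RPKM reads carry no molecular identifiers, so intervals cover counting error only. With 1 library per arm no test was made. Genes, promoter windows and hairpins came from RefSeq tables of GRCh38.p14, matched by symbol, and all 548 list members matched. A region belonged to each gene whose span, widened by 3000 bp, it met. Clusters joined regions of like direction within 10000 bp. Listed regions were the only ones in the table, so no filter on low values was added.

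Named genes were the 10 regions per direction with most reads at a coding gene, the 10 genes with most regions, the 6 deepest promoter regions per direction, up to 5 members per list by depth, 10 genes of the P300, casein kinase 2 and lineage machinery, and up to 5 clusters per direction. Not every gene the rule names is reported here. Other members shown as examples were chosen after their values were seen. The members and lists were chosen with earlier results of these data known. Alternatives tried were the pseudocount, the fold threshold, filters on level and reads, unscaled reads, autosomes, the distance to a gene end or gene, the value per gene and the overlap. The recovery was tested on simulated data. Python 3.11.15, numpy 2.4.6, pandas 2.3.3, scipy 1.17.1 and matplotlib 3.10.9 were used.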

Additional observations from a re-analysis of the deposited data

How the results depend on the processing

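Of the 13174 lower and 7121 higher regions past 2-fold, 35.1% were higher. At 4-fold 7060 lower and 6972 higher were left (49.7% higher). A level at or above the median left 4023 lower and 6104 higher (60.3% higher), so the majority changed direction. Both settings removed mostly lower regions. At least 20 reads over both libraries left 464 higher and 747 lower (38.3% higher). The other settings stayed within 1.5 times. With gene ends drawn at 1000 bp, which narrows that class by construction, they held 3.06% of higher and 2.33% of lower regions, gene interiors 40.7% and 41.1%, and the space between genes 56.6% of lower regions. With a gene valued by its densest region rather than its mean, 106 list genes in place of 42 were at least 2-fold higher, and the cause was not tested. At 31 named regions no direction reversed, but these settings could not have reversed one. A pseudocount cannot change the sign of a ratio, and unscaled reads shift it only by about the log2 ratio of the totals, -0.208. Of 86 alternative values 72 stayed inside the counting interval, and the 14 that did not were pseudocounts at regions that have no interval. No paired analysis was possible because each arm had 1 library. Depth limits every region, at a median of 12 reads over both libraries. No replicate tells a change from spread between libraries, and the scaling total of the RPKM was not checked, so another total would shift all ratios together.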

Other observations

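Regions that lay close together in the same direction were a small share of the table. Within 10000 bp of each other lay 473 higher regions (6.64%) in 231 clusters and 1489 lower regions (11.1%) in 717 clusters. Clusters held at most 3 higher or 4 lower regions. PRDM6, a smooth muscle regulator with a PR domain, had a cluster of 3 higher regions, with 31 reads after knockdown and 5 in the control. IL1R1, the interleukin 1 receptor, had another of 3, with 36 reads against 5. The 3 clusters of 4 lower regions, on chromosomes 2, 9 and 14, lay at no coding gene and held 6 reads against 36, 12 against 49 and 10 against 44.

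MicroRNA hairpins were rarely under a P300 region, at 4 of the 1562 in the table of hairpins. MIR216B lay under a higher region with 17 reads against 4 (4.91-fold, with a lower limit of 1.60). MIR1288, in PIGL, held 15 against 3 (5.77-fold, 1.63 to 31.1) and MIR519C 9 against 1 (10.4-fold, 1.44 to 456). MIR611, at FEN1 and TMEM258, lay under a lower region with 7 against 18, and its interval (0.888 to 6.31) included 1.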
